A study of Mus musculus with 6 samples.

Results

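The genes described here are 31 genes of retinal photoreceptors and their surroundings, taken from a list of gene names drawn up with earlier results of these data known, out of 56940 genes counted in mouse lens capsules. All 31 were found in the count files. The samples were C57BL/6 mouse lens capsules labelled wildtype, with the lens epithelial cells that stay attached after the fiber cell mass is taken out, a model of cataract surgery. There were 3 libraries at 0 h after surgery and 3 at 72 h, each made from 5 pooled capsules, and in each mouse the eyes were operated on 72 h apart. The sources used here do not give the age of the mice, and the descriptions of all 6 libraries carry the tag RUNX_Cre_N without an explanation, so the genotype beyond wildtype is not settled here. The labels call the cells lens epithelial cells. Lens epithelial markers were abundant in the libraries, while photoreceptors are cells of the retina, at the back of the eye, and are not part of the lens.

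In a rod or cone, light activates an opsin, which switches on the G protein transducin. Transducin releases the inhibition of a cGMP phosphodiesterase, cGMP falls, and the cGMP-gated cation channels of the outer segment close. Arrestin shuts the opsin off, the guanylate cyclase activators help to restore cGMP, and recoverin, when it holds calcium, prolongs the response, while the transcription factors Crx, Nrl and Nr2e3 set up and maintain rod gene expression.

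Each 0 h library held between 11338820 and 12432688 gene counts, more than any 72 h library, where totals lay between 8453450 and 8945397. Levels are given as CPM, counts per 1000000 of a library size adjusted for composition by TMM. In bulk RNA, fewer cells of a type and less RNA per cell cannot be told apart. The label says lens epithelium, and the summed level of 8 lens epithelial genes was 78728, 83872 and 80523 CPM in 0 h replicates 1, 2 and 3 and between 10197 and 18741 CPM at 72 h. The crystallins Cryaa (57828 CPM in the 0 h mean) and Cryab (20585 CPM), which are also fiber genes, held most of that sum. Of the 8 genes, 7 were called lower at 72 h in edgeR, against 17.5% of all genes tested. Their median log2 change, over all 8, was −1.88. The 1 gene not called was Pax6, a factor of the lens epithelium (684 and 643 CPM at 0 h and 72 h, log2 change −0.09, adjusted p = 0.58 in edgeR). Cryaa, Cryab and Pax6 were named after their values were seen. The library 72 h replicate 3 stood apart in surface epithelial keratins: 6 keratin genes summed to 4748 CPM there, against 5.56 and 104 CPM in 72 h replicates 1 and 2 and 24.8 to 53.5 CPM at 0 h.

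Of the 31 genes, 24 had a promoter window in the RefSeq table, which is on build GRCm38.p6, while the count files were made on GRCm39. The 250 bases before the start were searched on both strands for TAATCC, the core of the site bound by Crx, and for TGCTGA, the core of the Nrl site. Any link between these words and the levels in the libraries was not tested. TAATCC was found in 10 of the 24 (41.7%), against 7.21% of the 27025 genes in the table, and TGCTGA in 8 of 24 (33.3%), against 18.0%. Both words, with no overlapping matches, were found for Sag, Aipl1, Unc119 and Rpgrip1. A match is only a match of letters. The windows below belong to the 4 genes with the most counts among those in the table and show how different they are. They run 5′ to 3′ in the direction of the gene, with matches to either word, on either strand, in capitals.
Sag (chr1:87803430-87803679, + strand): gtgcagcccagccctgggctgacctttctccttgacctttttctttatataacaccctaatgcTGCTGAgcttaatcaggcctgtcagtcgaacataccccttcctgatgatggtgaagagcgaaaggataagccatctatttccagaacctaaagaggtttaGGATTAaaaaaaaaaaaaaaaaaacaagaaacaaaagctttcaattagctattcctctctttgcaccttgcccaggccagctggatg
Abca4 (chr3:122044210-122044459, + strand): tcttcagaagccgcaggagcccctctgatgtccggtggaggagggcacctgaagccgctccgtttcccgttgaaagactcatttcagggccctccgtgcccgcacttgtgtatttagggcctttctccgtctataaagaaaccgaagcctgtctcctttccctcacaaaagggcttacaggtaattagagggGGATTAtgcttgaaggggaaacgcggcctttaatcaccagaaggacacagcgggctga
Pde6b (chr5:108388123-108388372, + strand): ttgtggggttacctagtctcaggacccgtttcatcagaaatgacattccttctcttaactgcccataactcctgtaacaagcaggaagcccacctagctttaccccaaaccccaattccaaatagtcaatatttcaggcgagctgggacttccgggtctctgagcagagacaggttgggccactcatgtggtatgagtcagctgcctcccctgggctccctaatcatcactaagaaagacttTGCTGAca
Prph2 (chr17:46910228-46910477, + strand): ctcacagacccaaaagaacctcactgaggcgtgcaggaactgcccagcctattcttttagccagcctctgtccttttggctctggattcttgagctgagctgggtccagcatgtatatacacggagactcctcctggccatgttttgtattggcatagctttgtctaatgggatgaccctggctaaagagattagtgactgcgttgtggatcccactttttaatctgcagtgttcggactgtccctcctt
Sag had 1 match to each word, the Crx-type word on the reverse strand 87 bases and the Nrl-type word 187 bases before the start. Abca4 had the Crx-type word alone and Pde6b the Nrl-type word alone, while Prph2 had neither in this window.

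Photoreceptor RNA was present in every capsule library and was lower in each 72 h library than in each 0 h library. The 31 genes held 0.189%, 0.0799% and 0.0947% of gene counts in 0 h replicates 1, 2 and 3 and 0.0155%, 0.0130% and 0.0242% in 72 h replicates 1, 2 and 3. Summed levels were 1850, 797 and 929 CPM at 0 h and 152, 129 and 265 CPM at 72 h, with means of 1192 ± 574 and 182 ± 72.6 CPM (SD, n = 3 each), so that the 0 h mean was 6.56 times the 72 h mean. The sums of the groups did not overlap, and gene by gene the same held for 29 of the 31, against 26.9% of all 15407 genes tested. Among the 0 h libraries, replicate 1 held more than the others. Rod transducin alpha, Gnat1, alone made up 17.5% to 19.3% of the counts of the 31 genes at 0 h and 7.17% to 11.97% at 72 h.

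**Figure D1:**
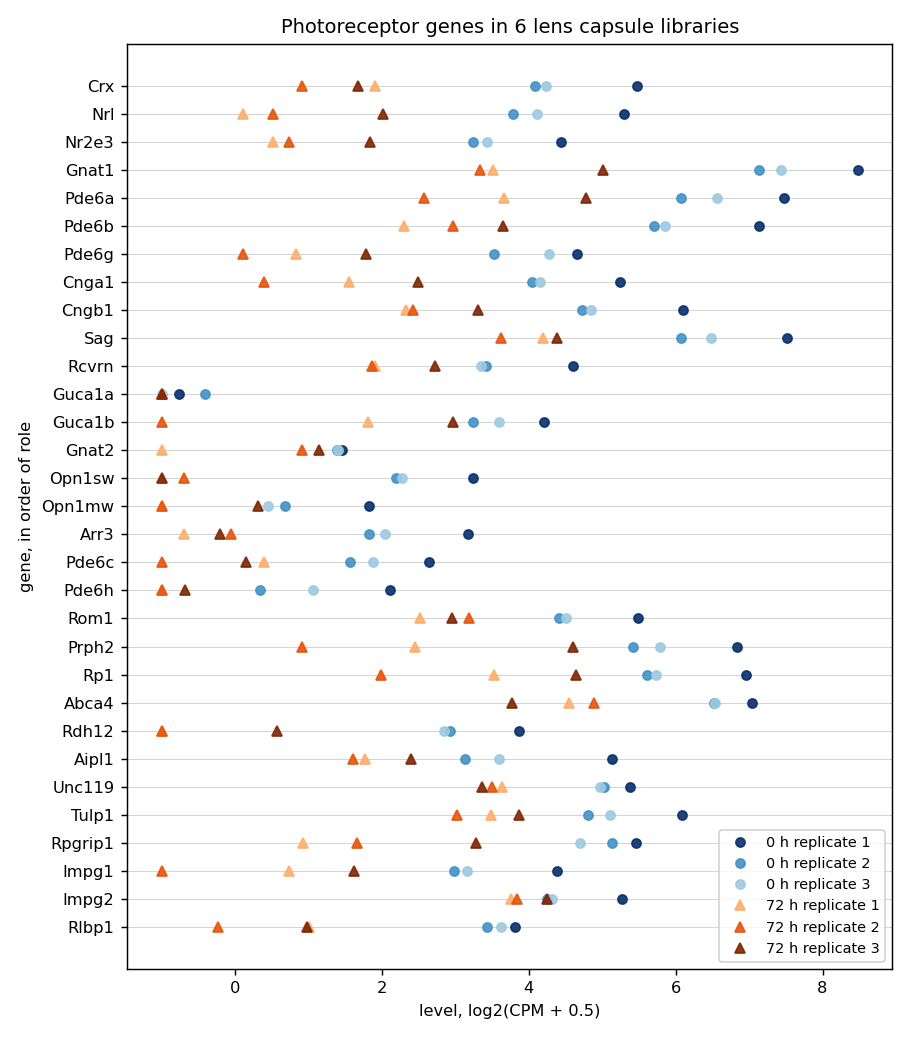
Level of each of the 31 genes in each library, as log2(CPM + 0.5), with genes ordered by role, circles for 0 h and triangles for 72 h. For 29 genes every 0 h library lies to the right of every 72 h library, and 0 h replicate 1 is the rightmost point for 30 genes.

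The transcription factors of photoreceptors all fell, 3 of 3, where 17.5% of all genes tested were called lower at 72 h (quasi-likelihood test in edgeR, p-values adjusted by Benjamini-Hochberg). Crx (ENSMUSG00000041578), a homeodomain factor of rods and cones, was at 44.0, 16.4 and 18.3 CPM at 0 h and at 3.24, 1.39 and 2.69 CPM at 72 h, a log2 change of −3.42 ± 0.48 (SE; adjusted p = 0.00044). The rod factor Nrl (ENSMUSG00000040632) was at 38.8, 13.2 and 16.8 CPM at 0 h and at 0.579, 0.924 and 3.55 CPM at 72 h (−3.77 ± 0.72, adjusted p = 0.0046; −4.90 without 72 h replicate 3 and −3.17 without 0 h replicate 1). Nr2e3 (ENSMUSG00000032292), a nuclear receptor that represses cone genes in rods, was at 21.1, 8.97 and 10.3 CPM and then at 0.926, 1.16 and 3.06 CPM (−2.97 ± 0.55, adjusted p = 0.002; −3.66 without 72 h replicate 3). For all 3 factors the lowest 0 h library was above the highest 72 h library, against 26.9% of all genes tested.

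The 10 rod phototransduction genes summed to 1028, 397 and 499 CPM at 0 h. Of the 10, 8 fell (against 17.5% of all genes tested), Guca1b (ENSMUSG00000023979) was not called and Guca1a (ENSMUSG00000023982) was not tested. Gnat1 (ENSMUSG00000034837) was at 356, 139.7 and 172 CPM at 0 h and at 10.9, 9.59 and 31.7 CPM at 72 h, a log2 change of −3.68 ± 0.71 (adjusted p = 0.015). Within 72 h, replicates 1 and 2 were close to each other and replicate 3 was higher. The Gnat1 call was lost without 72 h replicate 1 (−3.44, adjusted p = 0.052) and kept without 72 h replicate 3 (−4.43).

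The phosphodiesterase of rods has catalytic subunits encoded by Pde6a (ENSMUSG00000024575) and Pde6b (ENSMUSG00000029491) and an inhibitory subunit encoded by Pde6g (ENSMUSG00000025386). Pde6a was at 177, 67.0 and 94.3 CPM at 0 h and at 12.2, 5.43 and 26.9 CPM at 72 h (−2.93 ± 0.73, adjusted p = 0.031). Leaving out 0 h replicate 1 ended its call (−2.46, adjusted p = 0.066), and so did leaving out 0 h replicate 3 (adjusted p = 0.076) or 72 h replicate 1 (adjusted p = 0.11), while the change was −3.67 without 72 h replicate 3. It was not called with no filter on low counts either (adjusted p = 0.072). Pde6b was at 140.5, 51.8 and 57.6 CPM and then at 4.40, 7.28 and 11.98 CPM (−3.40 ± 0.58, adjusted p = 0.0065; −2.81 without 0 h replicate 1). Pde6g was at 24.7, 11.0 and 18.8 CPM and then at 1.27, 0.578 and 2.93 CPM (−3.51 ± 0.55, adjusted p = 0.00075; −4.27 without 72 h replicate 3). The groups did not overlap for any of these subunits, with 72 h lower, as was so for 26.9% of all genes tested.

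The channel subunit genes Cnga1 (ENSMUSG00000067220) and Cngb1 (ENSMUSG00000031789) both fell. Cnga1 was at 37.2, 15.9 and 17.2 CPM at 0 h and at 2.43, 0.809 and 5.14 CPM at 72 h (−3.07 ± 0.62, adjusted p = 0.0058; −3.83 without 72 h replicate 3). Cngb1 was at 68.2, 25.8 and 28.4 CPM and then at 4.51, 4.85 and 9.42 CPM (−2.71 ± 0.48, adjusted p = 0.0032). In both, 72 h replicate 3 was the highest of its group.

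Of the genes that end and reset the light response, rod arrestin (Sag, ENSMUSG00000056055) was at 182, 66.7 and 88.7 CPM at 0 h and at 17.7, 11.8 and 20.4 CPM at 72 h (−2.76 ± 0.45, adjusted p = 0.0046). Recoverin (Rcvrn, ENSMUSG00000020907), a calcium sensor of photoreceptors, was at 23.8, 10.2 and 9.70 CPM and then at 3.24, 3.12 and 6.11 CPM (−1.81 ± 0.45, adjusted p = 0.010). Its call was lost without 0 h replicate 1 (−1.27, adjusted p = 0.075). Guca1b, a guanylate cyclase activator, was not called: it was at 17.9, 8.97 and 11.5 CPM at 0 h and then at 3.01, 0 and 7.34 CPM (−1.89 ± 1.09, adjusted p = 0.23; −3.06 without 72 h replicate 3). The 72 h libraries of Guca1b ranged from 0 to 60 counts, although all lay below the 0 h libraries. The related activator Guca1a had 4 counts in all, 1, 3 and 0 in the 0 h libraries and none at 72 h, and was too low to test.

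Of the 6 cone phototransduction genes 3 fell (against 17.5% of all genes tested), Gnat2 (ENSMUSG00000009108) was not called, and Pde6h (ENSMUSG00000064330) and Opn1mw (ENSMUSG00000031394) were not tested. Opn1sw (ENSMUSG00000058831), the short-wave cone opsin, had 103, 48 and 55 counts at 0 h and 0, 1 and 0 counts at 72 h, so that the pooled level was 146 times higher at 0 h (95% counting interval 25.8 to 5776) and its call had an adjusted p of 0.00035. The only 72 h count lay in replicate 2, and the fitted change without that library (−8.93) rests on 0 counts. Exons of Opn1sw overlap those of Calu on the other strand over 15.5% of their length in GENCODE M21, which matters if counting ignored strand. Cone arrestin (Arr3, ENSMUSG00000060890) was at 8.48, 3.05 and 3.63 CPM and then at 0.116, 0.462 and 0.367 CPM (−3.95 ± 0.75, adjusted p = 0.0023).

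Pde6c (ENSMUSG00000024992), the catalytic phosphodiesterase subunit of cones, was at 5.71, 2.46 and 3.16 CPM and then at 0.810, 0 and 0.611 CPM (−2.96 ± 0.91, adjusted p = 0.027). That call was lost without any one of the 0 h libraries (adjusted p = 0.14, 0.057 and 0.075 without replicates 1, 2 and 3), and the change was −3.61 without 72 h replicate 1. Its inhibitory partner Pde6h was too low to test, with 44, 9 and 20 counts at 0 h and a single count at 72 h, in replicate 3. The pooled level of Pde6h was 51.6 times higher at 0 h (95% counting interval 8.97 to 2065). The middle-wave opsin Opn1mw, also not tested, had 35, 13 and 11 counts at 0 h and 0, 0 and 6 at 72 h. Cone transducin alpha, Gnat2, was not called although its groups did not overlap: it was at 2.25, 2.12 and 2.13 CPM at 0 h, with no excess in replicate 1, and at 0, 1.39 and 1.71 CPM at 72 h (−1.06 ± 0.95, adjusted p = 0.41).

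Of 5 genes of the outer segment and of retinoid handling, 3 fell (against 17.5% of all genes tested). Prph2 (ENSMUSG00000023978) and Rom1 (ENSMUSG00000071648) encode the tetraspanins of the disc rim. Rom1 was at 44.5, 20.7 and 22.2 CPM at 0 h and at 5.21, 8.55 and 7.21 CPM at 72 h (−2.06 ± 0.34, adjusted p = 0.0011). Prph2 was at 114, 42.2 and 54.5 CPM and then at 4.98, 1.39 and 23.7 CPM, and was not called (−2.81 ± 1.10, adjusted p = 0.12). Its 72 h libraries were far apart, with replicate 3 the highest, and without that library it was called (−4.45, adjusted p = 0.027). Rp1 (ENSMUSG00000025900), a microtubule protein of the outer segment axoneme, was likewise not called, at 124, 48.3 and 52.8 CPM and then 11.0, 3.47 and 24.6 CPM (−2.53 ± 0.82, adjusted p = 0.069; −3.36 without 72 h replicate 3). For Prph2 and Rp1 the groups did not overlap, with 72 h lower, as was so for 26.9% of all genes tested. DESeq2 and limma voom both called these 2 genes (adjusted p of 0.03 and 0.011 for Prph2, 0.0085 and 0.0098 for Rp1).

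Abca4 (ENSMUSG00000028125), the retinoid flippase of disc rims that is also made in the retinal pigment epithelium, was at 131, 91.4 and 92.3 CPM at 0 h and at 22.8, 29.1 and 13.1 CPM at 72 h (−2.28 ± 0.29, adjusted p = 0.00057). Its 72 h replicate 3 was the lowest of the 72 h libraries, the reverse of the rod genes. Rdh12 (ENSMUSG00000021123), a retinol dehydrogenase of photoreceptor inner segments, was at 14.0, 7.11 and 6.70 CPM and then at 0, 0 and 0.978 CPM (−4.81 ± 1.00, adjusted p = 0.0046). All 8 of its 72 h counts lay in replicate 3, and the fitted change without that library (−9.63) rests on 0 counts.

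All 4 chaperone and transport genes fell (against 17.5% of all genes tested). Unc119 (ENSMUSG00000002058), a lipid-binding carrier of transducin that is also made in many other tissues, was at 41.3, 32.0 and 30.7 CPM at 0 h and at 11.9, 10.7 and 9.78 CPM at 72 h (−1.68 ± 0.20, adjusted p = 0.00015). Its replicates were the tightest of the 4. Tulp1 (ENSMUSG00000037446), needed for transport to the outer segment, was at 67.4, 27.3 and 33.8 CPM and then at 10.7, 7.62 and 14.1 CPM (−1.99 ± 0.38, adjusted p = 0.0035). Aipl1 (ENSMUSG00000040554), a chaperone of phosphodiesterase, was at 34.4, 8.21 and 11.6 CPM and then at 2.89, 2.54 and 4.77 CPM (−2.41 ± 0.56, adjusted p = 0.0086). The change of Aipl1 was −1.55 without 0 h replicate 1, and its call was lost without 72 h replicate 1 (adjusted p = 0.054) and in limma voom (adjusted p = 0.059). Rpgrip1 (ENSMUSG00000057132), a protein of the connecting cilium, was at 43.4, 34.5 and 25.4 CPM and then at 1.39, 2.66 and 9.17 CPM (−2.97 ± 0.65, adjusted p = 0.012; −4.07 without 72 h replicate 3), and it was not called with no filter on low counts (adjusted p = 0.071). Exons of Rpgrip1 overlap those of Supt16 on the other strand over 8.70% of their length.

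The matrix between photoreceptors and pigment epithelium is built from proteoglycans encoded by Impg1 (ENSMUSG00000032343) and Impg2 (ENSMUSG00000035270), and these differed. Impg1 was at 20.4, 7.37 and 8.44 CPM at 0 h and at 1.16, 0 and 2.57 CPM at 72 h (−3.28 ± 0.94, adjusted p = 0.026). Its call was lost without any one of the 0 h libraries (adjusted p = 0.097, 0.056 and 0.067 without replicates 1, 2 and 3) or 72 h replicate 1 (adjusted p = 0.10). Keeping all low genes ended the Impg1 call too (adjusted p = 0.12), and the change ranged from −2.68 without 0 h replicate 1 to −4.34 without 72 h replicate 3. Impg2 was at 38.1, 18.5 and 19.4 CPM and then at 13.0, 13.7 and 18.5 CPM, with the groups touching, and was not called by edgeR (−0.75 ± 0.31, adjusted p = 0.080). Without 72 h replicate 3 it was called (−0.91, adjusted p = 0.033). Rlbp1 (ENSMUSG00000039194), the retinaldehyde-binding protein of Müller glia and pigment epithelium, was at 13.5, 10.2 and 11.8 CPM and then at 1.505, 0.347 and 1.47 CPM (−3.41 ± 0.51, adjusted p = 0.00056).

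Counted over the list, 28 of the 31 genes passed the filter on low counts and 23 of these fell, all by at least 2-fold; 5 were not called. Of all 15407 genes tested, 17.5% were called lower and 10.4% were called lower by at least 2-fold. None of the 28 was higher in the edgeR test, at an unadjusted p under 0.05, or by DESeq2 or limma voom, where 21.0% of all genes were called higher. A fall of at least 8-fold was called for 11 of the 28, against 2.33% of all genes. The groups did not overlap, with 72 h lower, for 29 of the 31, against 26.9% of all genes tested. The median log2 change was −2.95 for the 28 and −0.02 for all genes. These counts are descriptions, because 12 of the 28 reached the filter's level in every 0 h library but not in every 72 h library, so that their passing rested on the group where they were higher. The other 16 were above it in every library, and 13 of those 16 fell. The filter was applied anew in each fit with a library left out. Without 0 h replicate 1, 19 of the 31 genes were called lower, and without 72 h replicate 3, 27. The 27 took in genes that the main filter left out. Guca1b, Gnat2 and Rp1 were not called there (adjusted p = 0.057, 0.23 and 0.054 in edgeR). Calls over all genes, in either direction, numbered 4439 and 6911 in those fits, against 5930.

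**Figure D2:**
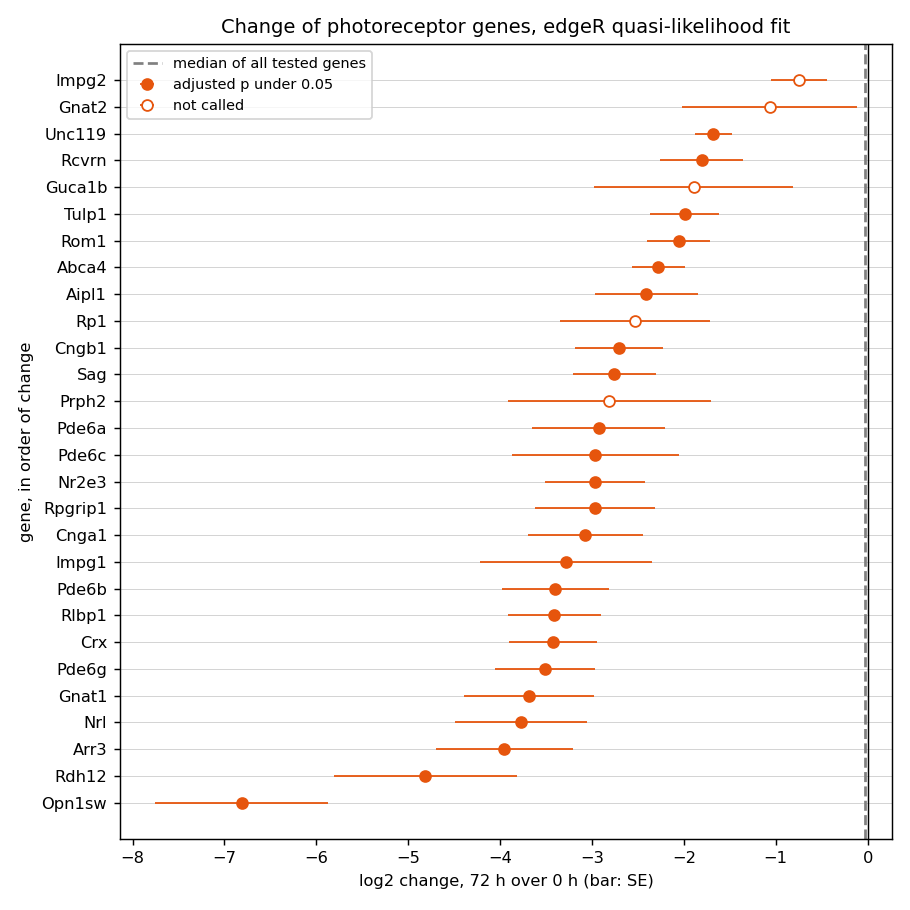
Log2 change, 72 h over 0 h, of the 28 tested genes with its SE, in order of size, with filled points for adjusted p under 0.05 and open points for genes not called. All lie left of 0, from −0.75 for Impg2 to −6.81 for Opn1sw, whose value rests on a single 72 h count.

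Within the 0 h group most of these genes were highest in the same library. Among the 28 tested genes, 0 h replicate 1 was the highest 0 h library for all 28, against 32.8% of all genes tested, and replicate 2 the lowest for 24, against 32.7%. The ratio of 0 h replicate 1 to 0 h replicate 2 was at least 2 for 21 of the 28, against 5.36% of all genes, with a median of 2.35 for the 28 and 0.996 for all genes. Gnat1 had a ratio of 2.55 (exact 95% counting interval 2.41 to 2.70), Pde6a 2.64 (2.43 to 2.86), Pde6b 2.71 (2.47 to 2.98) and Sag 2.73 (2.52 to 2.97). These rod genes had intervals that overlap each other, and so did those of Prph2 at 2.70 (2.44 to 3.00) and Rp1 at 2.57 (2.33 to 2.84). Against 0 h replicate 3 the factors differed more: 0 h replicate 1 was 2.07 times higher for Gnat1 (1.96 to 2.18), 1.87 for Pde6a (1.74 to 2.01), 2.44 for Pde6b (2.23 to 2.67) and 1.32 for Pde6g (1.11 to 1.57), and the intervals of Pde6b and Pde6g do not overlap that of Gnat1. PCR copies are not independent molecules, and the intervals cover counting error only.

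The 7 genes with a ratio under 2 were Guca1b (1.99), Rdh12 (1.97), Abca4 (1.44), Rlbp1 (1.32), Unc119 (1.29), Rpgrip1 (1.26) and Gnat2 (1.06). The intervals of Abca4 (1.33 to 1.56), Unc119 (1.12 to 1.48), Rpgrip1 (1.10 to 1.44) and Rlbp1 (1.03 to 1.68) lay wholly below that of Gnat1. So did the wide interval of the cone gene Gnat2 (0.590 to 1.92), which had 26 and 25 counts in 0 h replicates 1 and 2. Those of Guca1b and Rdh12 overlapped that of Gnat1. Aipl1 lay on the other side, at 4.19 (3.35 to 5.29). Lens genes did not share the excess of 0 h replicate 1: the sum of 8 lens epithelial genes there was 0.939 of that in 0 h replicate 2, and the sum of 7 lens fiber genes 0.945. Surface keratins (53.5, 24.8 and 37.9 CPM in 0 h replicates 1, 2 and 3) were also highest in 0 h replicate 1, ganglion cell markers (47.0, 23.9 and 51.6 CPM) and red cell markers (7.01, 1.95 and 22.3 CPM) were lowest in 0 h replicate 2, and their part in the photoreceptor differences was not tested.

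**Figure D3:**
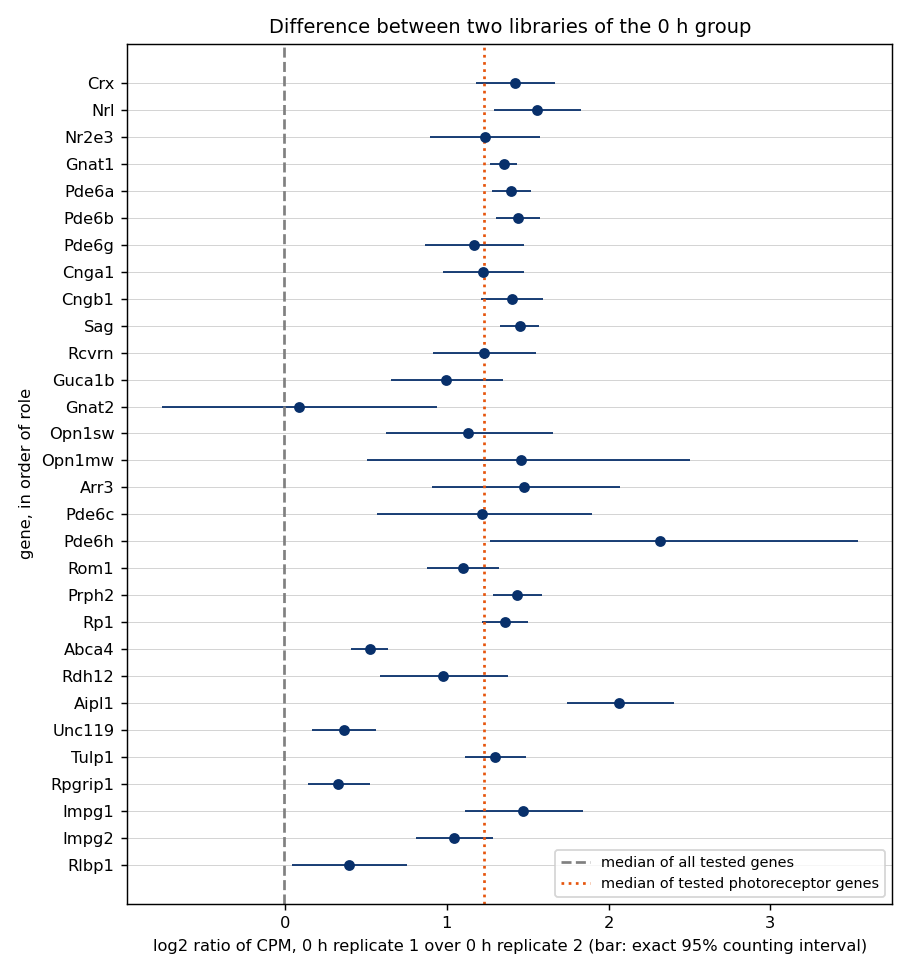
Log2 ratio of CPM in 0 h replicate 1 over 0 h replicate 2 for the 30 genes with at least 10 counts over the 6 libraries, with exact 95% counting intervals. Most genes sit near the dotted median of 2.35 (plotted as log2), and Abca4, Unc119, Rpgrip1, Rlbp1 and Gnat2 sit nearer the dashed line at 0.996, the median of all tested genes.

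At 72 h the ordering of libraries was another one. Replicate 3 was the highest 72 h library for 20 of the 28 tested genes, against 34.1% of all genes tested, and replicates 1 and 2 for 4 each. The summed level of the 10 rod phototransduction genes was 59.6, 43.4 and 122 CPM in 72 h replicates 1, 2 and 3. The same library held 4748 CPM of surface keratins and had the lowest sums of bipolar, pigment cell and ciliary epithelial markers, and the part of these differences in the photoreceptor values was not tested. Of the 31 genes, 25, 24 and 29 had at least 1 count in 72 h replicates 1, 2 and 3, and 9 had 0 counts in some 72 h library.

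Per kilobase of exon, each rod phototransduction gene except Guca1a had a higher mean than every cone gene at 0 h. Exon lengths were the union of all annotated exons of a gene in GENCODE M21 on GRCm38, and levels per length are CPM per kilobase. This length was 8.90 kb for Sag and 7.85 kb for Pde6h, against 3.03 kb for Gnat1. The order of genes depends on this choice of length, and no other was tried. Gnat1 was highest at 73.6 ± 38.6 (SD, n = 3), followed by Pde6a at 24.0 ± 12.2, Prph2 at 23.4 ± 12.8, Rom1 at 19.2 ± 8.77 and Pde6b at 16.6 ± 9.87, of which the last 4 differed by less than their spread. That spread is between libraries and takes in the excess of 0 h replicate 1 that these genes share. It does not measure differences between genes within a library. The 6 cone genes lay between 0.261 ± 0.201 for Pde6h and 2.26 ± 1.06 for Opn1sw. At 72 h the highest were Gnat1 at 5.74 ± 4.09, Rom1 at 4.61 ± 1.11, Unc119 at 4.42 ± 0.438 and Rcvrn at 3.998 ± 1.63 CPM per kilobase, which their spread does not separate. The pattern over 30 of the genes, as log2(CPM + 0.5), was alike within 0 h, with Pearson correlations of 0.970 to 0.990 for pairs of libraries, and less alike within 72 h, with 0.787 to 0.897. These are across genes, which share gene length and library and are not replicates.

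A further 40 photoreceptor genes outside the 31 were mostly lower at 72 h as well. Of 37 tested, 26 fell (against 17.5% of all genes tested), 1 rose (against 21.0%) and 10 were not called. The sum of the 40 was 1312, 583 and 702 CPM in 0 h replicates 1, 2 and 3 and 112, 82.7 and 237 CPM in 72 h replicates 1, 2 and 3. Replicate 1 was the highest 0 h library for all 37. Rbp3, the retinoid carrier of the interphotoreceptor space, had the most counts, at 184, 72.3 and 94.3 CPM and then 11.5, 12.5 and 39.1 CPM (−2.48 ± 0.68, adjusted p = 0.043). The Rbp3 call ended on leaving out either of 72 h replicates 1 and 2 or any 0 h library (adjusted p from 0.061 to 0.11) and with no filter (0.093), and the change was −3.27 without 72 h replicate 3. Among the others with most counts, the sodium-calcium exchanger genes Slc24a1 (−3.19 ± 0.87, adjusted p = 0.042) and Slc24a2 (−2.71 ± 0.45) and Reep6 (−3.19 ± 0.42) fell, and Grk1, which encodes the kinase that phosphorylates the rod opsin, was not called (−2.82 ± 0.82, adjusted p = 0.051). Grk1 was called when 72 h replicate 3 was left out (−3.60, adjusted p = 0.048) or 72 h replicate 2 was (adjusted p = 0.032), with library size alone or upper quartile scaling (adjusted p of 0.041 and 0.046), and by DESeq2 and limma voom (adjusted p of 0.0039 and 0.0070). The Slc24a1 call ended on leaving out any 0 h library or either of 72 h replicates 1 and 2 (adjusted p from 0.061 to 0.12). It also ended with no filter (0.095). Without 72 h replicate 3 the change was −4.42 for Slc24a1 and −3.44 for Slc24a2. The gene that rose was Gngt2, named after its values were seen, a transducin gamma subunit of cones, at 0.519, 0.508 and 0.394 CPM and then 1.505, 2.77 and 3.55 CPM (2.43 ± 0.71, adjusted p = 0.021). The Gngt2 call ended on leaving out either of 72 h replicates 2 and 3 or any 0 h library (adjusted p from 0.053 to 0.096) and with no filter (0.064). Its exons overlap those of Abi3 on the other strand over 12.5% of their length. In the same libraries 7 of 7 tested macrophage and neutrophil markers rose (against 21.0% of all genes tested), and their part in the rise of Gngt2 was not tested.

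Bipolar, Müller and visual cycle sums were closer to level between 0 h libraries than the photoreceptor sums, while ganglion cell markers had 1.97 times as much in 0 h replicate 1 as in replicate 2. The sum of 10 bipolar cell markers was 231, 209 and 238 CPM in 0 h replicates 1, 2 and 3, that of 7 Müller glia markers 3213, 3190 and 3498 CPM, and that of 5 visual cycle genes of the pigment epithelium 69.1, 55.5 and 59.8 CPM. Dkk3, with a 0 h mean of 2834 CPM, held most of the Müller sum and was named after its values were seen, and Glul, the glutamine synthetase gene, fell by 0.98 on the log2 scale. The bipolar sum was mostly the channel gene Trpm1, and Lrit3, named after its values were seen, had a ratio of 0 h replicate 1 to replicate 2 of 4.09 (2.45 to 7.16). Bipolar markers fell for 6 of 8 tested (against 17.5% of all genes), among them Trpm1 (157, 139 and 149.6 CPM, then 45.4, 26.9 and 24.0 CPM, −2.21 ± 0.23). All 4 tested visual cycle genes fell (against 17.5% of all genes), with sums of 1.39, 1.39 and 10.03 CPM at 72 h, among them the retinol acyltransferase gene Lrat (−4.18 ± 1.04, adjusted p = 0.010). All 72 h counts of Lrat lay in replicate 3, the fitted change without it (−9.00) rests on 0 counts, and the call was lost without 0 h replicate 1 (adjusted p = 0.056). Of 9 ganglion cell markers 5 were tested. Of these 1 fell, near the share of all genes tested (17.5%), and 4 were not called. Nefl, the neurofilament light chain, was the 1 that fell. It was at 17.3, 7.03 and 18.2 CPM and then 1.39, 0.578 and 0.245 CPM (−4.24 ± 0.61, and −5.06 without 72 h replicate 1), with 0 h replicates 1 and 3 alike. Exons of Nefl overlap those of Nefm on the other strand over 32.8% of their length.

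**Figure D4:**
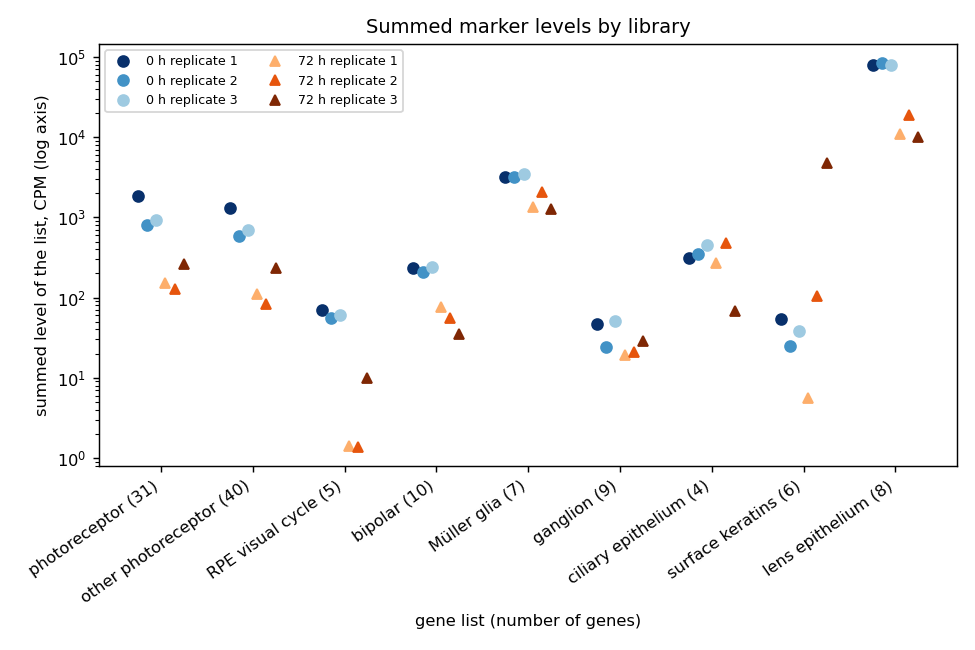
Summed CPM of each marker list in each library on a log axis, with circles for 0 h and triangles for 72 h. In the photoreceptor lists 0 h replicate 1 stands above the other 0 h libraries, at 1850 and 1312 CPM, while the bipolar, Müller glia and lens epithelial lists are near level at 0 h, and 72 h replicate 3 stands out in the surface keratins at 4748 CPM.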

How the data were processed

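RNA from 6 pooled lens capsule libraries (Takara SMARTer Stranded Pico v2, per the labels' protocols) was analysed from the raw counts per Ensembl gene deposited by the authors, which carry no normalization. The submitters' processing notes name HISAT2, HTSeq, edgeR and the build GRCm39; versions, annotation and strand setting are not given in the sources used here. Lines of reads assigned to no gene, 41.9% to 51.7% of each file, were left out. A reference table of gene names gave symbols for 51947 of 56940 identifiers, and exon lengths and overlaps came from GENCODE M21, on another build (GRCm38).

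Genes were kept by edgeR's filterByExpr (minimum count 10, minimum total 15; 0.986 CPM at the median library size in 3 libraries), scaled by TMM, with robust dispersions, and tested for time alone by the quasi-likelihood test (edgeR 4.0.16, R 4.3.3; prior count 0.125, two-sided). Adjusted p-values are Benjamini-Hochberg over all 15407 genes, called under 0.05. SE is the log2 change over the root of F. The fits were tested on simulated data. DESeq2 1.42.0, limma 3.58.1 voom, other scalings and filters, a replicate block and leaving out each library were tried.

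The 31 genes and the marker lists (166 symbols in all, 165 found) were chosen with earlier results of these data known. All 31 are named; of the others, the 6 photoreceptor genes with most counts and, per marker list, the called gene with the smallest p in each direction could be named, of which 1 is not reported here. A planned comparison of protein sequences was not run, as no protein table was used here. The labels name the 3 libraries of a time as separate samples of pooled capsules, so p-values measure the spread between pools.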

Additional observations from a re-analysis of the deposited data

How the results depend on the processing

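Under every alternative tried, all 28 tested photoreceptor genes kept a negative log2 change. Their calls were as reported in 364 of 392 combinations of gene and alternative, were lost in 20 and gained in 8. Genes called lower among the 31 numbered 20 with the replicate block, 22 with no filter, 24 with the stricter filter and 25 with DESeq2 or limma voom, against 23, and none was higher. With no filter and with the stricter filter, these counts took in calls from outside the 28 genes tested in the main fit. Leaving out each library gave 19 to 27 of the 31 genes lower, with 19 without 0 h replicate 1 and 27 without 72 h replicate 3. On leaving out 0 h replicate 2 or any 72 h library, these counts took in calls from outside the 28. Of the other 40 photoreceptor genes, 20 to 34 were lower, against 26. Of all genes, 4395 to 6911 were called in either direction, against 5930, with 6911 without 72 h replicate 3. The share of all genes called lower is not given here for the alternatives. With the replicate block Gnat1 (adjusted p = 0.060), Pde6b (0.055) and Rpgrip1 (0.056) lost their calls, and with no filter Pde6a (0.072), Rpgrip1 (0.071) and Impg1 (0.12) did, while Impg2 gained one (0.018). Limma voom lost Aipl1 (0.059) and gained Guca1b (0.046). Causes were not tested. The block also ended the calls of Rbp3 (0.12), Slc24a1 (0.087) and Gngt2 (0.080). Each mouse gave an eye to each time, but the labels do not say that same-numbered pools share mice, so the pairing is not known. The deviations of same-numbered libraries correlated at −0.04, 0.06 and −0.01, and 0 h replicate 1 correlated best with 72 h replicate 3 (0.09). The summed level was 1211 and 176 CPM without TMM, and 1514 and 228 CPM relative to counts outside crystallin and mitochondrial genes. At 72 h, 1117 to 2164 counts of these genes per library limit the precision.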

Other observations

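Some markers of other cell types moved in the other direction or in part. Of 10 amacrine and horizontal cell markers, 4 were tested. Of these 1 fell (against 17.5% of all genes tested) and 2 rose (against 21.0%). The glycine transporter gene Slc6a9 fell (−1.02 ± 0.24, SE), and its exons overlap those of genes on the other strand over 30.2% of their length. Gad2, which encodes a glutamate decarboxylase, rose from 1.12, 0.847 and 0.868 CPM at 0 h to 16.8, 9.82 and 16.3 CPM at 72 h (3.90 ± 0.40). Tfap2b, named after its values were seen, also rose (2.30 ± 0.52, adjusted p = 0.0062; 2.93 without 0 h replicate 1), at 4.41, 1.78 and 1.499 CPM and then 9.96, 8.20 and 19.8 CPM. These 2 genes moved against the photoreceptor genes in the same libraries, but the list of 10 did not rise as a whole. The remaining tested marker, Gad1, named after its values were seen, was not called. It had 29, 37 and 50 counts at 0 h and 7, 0 and 7 at 72 h. The groups did not overlap, with 72 h lower, for 4 of the 10 markers, against 26.9% of all genes tested. Among the 4 were Chat and Calb1, named after their values were seen and too low to test. Chat had 1, 5 and 7 counts at 0 h and Calb1 10, 8 and 17, with none at 72 h. The summed level of the 10 averaged 49.92 CPM at 0 h and 47.97 CPM at 72 h, with overlapping groups. Oca2, a melanosome gene of pigment cells, fell from 65.3 ± 6.07 to 2.74 ± 1.86 CPM (SD, n = 3). Its log2 change was −4.57 ± 0.39, and −5.29 without 72 h replicate 1. It was 1 of 2 called lower among 6 tested pigment cell markers (against 17.5% of all genes tested). Of 4 ciliary epithelial markers only Msx1 was called, lower at 72 h (−0.91 ± 0.18), against 17.5% of all genes tested. The granulocyte receptor gene Csf3r rose (4.41 ± 0.34), the lens epithelial factor Foxe3 fell (−2.09 ± 0.11) and the filensin gene Bfsp1 fell (−5.13 ± 0.16). None of 5 tested keratins, 2 tested endothelial or 3 tested red cell markers was called by edgeR, and Ly6g had 0 counts in every library.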
